A study of Arabidopsis thaliana with 8 samples.

Results

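The dehydration response of enap1-1enap2 seedlings of Arabidopsis thaliana was measured in 4 RNA-seq libraries, 2 of the enap1-1enap2 Dehydration group and 2 of the enap1-1enap2 Mock group, out of 8 libraries in the series. The mutant is in the Col-0 background and combines, by crossing, enap1-1, a deletion made in ENAP1 with CRISPR/Cas9, and enap2, in which T-DNA lies in the first exon of ENAP2. Dehydration seedlings were 10 days old, had grown on ½ MS medium in 16 h light and 8 h dark, and were placed for 4 h on paper wetted with liquid medium that held 25% PEG8000, while Mock seedlings of the same age were placed for 4 h on the medium alone. The other 4 libraries are Col-0 Dehydration and Col-0 Mock, the wild type under the same treatments. RNA came from whole seedlings, in which leaf and root cells are pooled, and each genotype was represented by a single line. All genes of the count table were considered in both directions, and 21614 of its 36799 genes had enough counts for the test.

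PEG8000 is a polymer too large to pass the cell wall, and it draws water out of the plant by lowering the water potential of the medium. Plants answer a loss of water with the hormone abscisic acid (ABA). ABA is bound by the PYR/PYL receptors, which then inhibit the clade A protein phosphatases 2C (PP2Cs). The SnRK2 kinases, no longer held back by these phosphatases, phosphorylate transcription factors that bind the ABA-responsive element (ABRE). A second route runs through DREB factors, which bind the dehydration-responsive element (DRE). Protective proteins, compatible solutes and cuticular waxes are typical products of both routes, and growth and photosynthesis are typically reduced. ENAP1 and ENAP2 are annotated as DNA-binding proteins, and the authors describe ENAP1 as a histone-binding protein. ENAP1 was named after its association with EIN2 of the ethylene pathway in the nucleus.

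Reads counted per library were 41431259 and 29512436 in enap1-1enap2 Dehydration and 37111461 and 24624499 in enap1-1enap2 Mock. They were 24007691 and 24919659 in Col-0 Dehydration and 34814583 and 48279415 in Col-0 Mock. Levels are given in CPM, the count of a gene per 1e6 counts of the library, after scaling by the trimmed mean of M-values, and 3 counts, used as the floor of detection, were worth 0.0608 to 0.135 CPM. Library pairs were unequally close. The mean chi-square of replicate counts per gene was halved, as mates were counted singly, so that counting noise alone gives 1. It was 1.44 in enap1-1enap2 Mock but 15.8 in enap1-1enap2 Dehydration, 3.72 in Col-0 Dehydration and 12.2 in Col-0 Mock. This mean rests largely on genes with high counts. The median over its expected value was 1.42, 2.31, 2.12 and 4.58 in the same order of groups, highest in Col-0 Mock. Col-0 Mock 1 held 40.2 CPM of CRA1, a seed storage protein, against 0.365 CPM in Col-0 Mock 2 and at most 0.362 CPM in the enap1-1enap2 libraries. ENAP1 (AT3G11100, chromosome 3, 3476187 to 3477900, minus strand) had 12.3 and 11.5 CPM in enap1-1enap2 Dehydration, against 3.81 and 5.11 CPM in enap1-1enap2 Mock, while Col-0 had 22.5 and 24.4 CPM under Dehydration and 13.9 and 17.3 CPM under Mock. ENAP2 (AT5G05550, chromosome 5, 1639000 to 1640960, minus strand) had 4.06 and 4.93 CPM against 3.10 and 3.51 CPM in the mutant, and 8.70 and 7.22 CPM against 9.32 and 7.76 CPM in Col-0. Every mutant library thus lay below every Col-0 library of the same treatment for both genes. Counts cover all exons of a gene, so that a deletion or an insertion in a part of it need not bring them to 0, and ENAP2 overlaps the neighbouring AT5G05560 by 863 bases. Within the mutant, ENAP1 was itself induced by dehydration, with a log2 fold change of 1.44 ± 0.16 (SE; adjusted p = 1.11e-06), and ENAP2 was not called (0.44, adjusted p = 0.0717).

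Dehydration changed the level of a large share of all tested genes in enap1-1enap2. Calls rest on edgeR's quasi-likelihood test and needed a log2 fold change beyond 1 in either direction, p under 0.01 before adjustment and under 0.05 after it (Benjamini-Hochberg). By this rule 5763 of 21614 genes were called (26.7%), of which 2715 were induced (12.6%) and 3048 were repressed (14.1%). The median log2 fold change was 1.65 among induced and −1.68 among repressed genes. With genes at or below 3 counts in both libraries of a group set at their bound, 201 genes rose and 144 fell by more than 4 on the log2 scale, and 62 rose and 20 fell by more than 6. With fitted values, which for such genes depend on the prior count, 256 rose and 278 fell by more than 4 and 113 rose and 121 fell by more than 6, so that the order of the directions rests on how these genes are treated. The same genes at their bound left the median at 1.65 among induced and moved it to −1.66 among repressed genes. Of the induced genes, 2712 had both Dehydration libraries above both Mock libraries, and all 3048 repressed genes had them below, in a table in which 84.4% of all tested genes did not overlap between the groups.

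The induced genes held 29.2% and 27.5% of the counts of tested genes in the Dehydration libraries, against 7.30% and 7.34% in the Mock libraries. The repressed genes held 5.01% and 5.09% under Dehydration, against 16.1% in both Mock libraries. In the median, an induced gene had 33.2 CPM under Dehydration against 9.15 CPM under Mock, and a repressed gene 3.06 CPM against 10.3 CPM. For 100 induced genes both Mock libraries were at or below 3 counts, and for 190 repressed genes both Dehydration libraries were. The chromosomes had similar shares of called genes: 12% to 13% of the tested genes of each chromosome were induced and 13.2% to 15.3% were repressed. Genes with a single exon block made up 21.4% of the induced and 25.5% of the repressed genes, against 18.3% of all tested genes. The split between directions depended on the scaling. Induced genes were 47.1% of those called, but 36.5% with upper-quartile scaling and 36.4% with library size alone, which moved the median log2 fold change of all genes by −0.16 and −0.17.

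**Figure D1:**
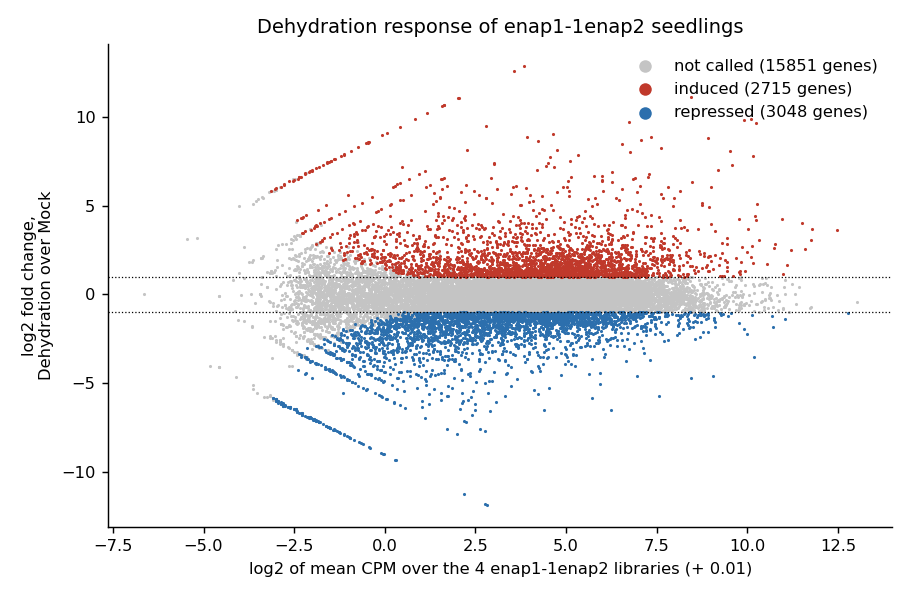
Log2 fold change of each tested gene, enap1-1enap2 Dehydration against enap1-1enap2 Mock (vertical axis), against its log2 mean CPM (horizontal axis), with 2715 induced and 3048 repressed genes coloured. Called genes stood on both sides over most of the range of levels, and the slanting lines of points at low levels are genes with no count in a group, whose fitted fold change depends on the prior count.

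Most of the largest rises were of genes for late embryogenesis abundant (LEA) proteins, hydrophilic proteins that accumulate in drying seeds and protect other proteins and membranes from water loss. RD29B (AT5G52300), a classical ABA-responsive gene, had 1853 and 1969 CPM in the Dehydration libraries, against 1.93 and 2.29 CPM in the Mock libraries, a log2 fold change of 9.84 ± 0.76 (SE; adjusted p = 1.59e-08). LEA7 (AT1G52690) had 2194 and 2157 CPM against 2.59 and 1.83 CPM (9.91 ± 0.46, adjusted p = 3.95e-11). AT3G17520, another LEA gene, had 682 and 721 CPM against 0.203 and 0.458 CPM (11.15 ± 0.76, adjusted p = 3.49e-09). In all 3 genes the groups were far apart and the replicates close together. AT3G02480, also of the LEA family, had 2299 and 2521 CPM against 3.20 and 2.75 CPM (9.65 ± 0.53). EM1 (AT3G51810), an LEA protein of the dry seed, had 25.0 and 31.9 CPM under Dehydration and no count in either Mock library, which makes it at least 299-fold higher when the Mock libraries are set at 3 counts. Of the 10 largest rises, taken among genes that averaged 5 CPM or more in the mutant, 7 are LEA proteins, which include AT2G18340 (13.7 and 14.1 CPM against 0.0254 and 0 CPM, at least 146-fold higher), AT2G42560 (9.02 ± 0.44) and AT4G36600 (8.87 ± 0.80) besides those above. The remaining members were RD29B, AT5G04380, a putative methyltransferase with 22.4 and 24.8 CPM against no count (at least 248-fold higher), and AT5G05220, an uncharacterised protein with 204 and 222 CPM against 0.305 and 0.153 CPM (9.75 ± 0.21).

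Measured by CPM gained, which also grows with transcript length, 3 of the 5 leading genes were known cold- and drought-regulated genes. COR47, a dehydrin, had 6692 and 6383 CPM under Dehydration, against 494 and 503 CPM under Mock (3.71 ± 0.12). COR15A, a chloroplast protein that protects membranes during freezing, had 6556 and 5717 CPM against 733 and 738 CPM (3.06 ± 0.17). RD29A, the neighbour of RD29B on chromosome 5 and a common reporter of osmotic stress, had 5420 and 5504 CPM against 339 and 340 CPM (4.01 ± 0.17). These genes were already well expressed in Mock seedlings, unlike RD29B. ADC2, an arginine decarboxylase of polyamine synthesis, had 5362 and 5100 CPM against 905 and 890 CPM (2.54 ± 0.11). The largest gain of all was that of AT3G06365, an uncharacterised RNA that begins 298 bases after a 5.8S ribosomal RNA gene and of whose exon sequence 92.6% recurs elsewhere in the genome. It had 18177 CPM in Dehydration 1 but 2843 CPM in Dehydration 2, against 793 and 921 CPM in the Mock libraries, and its log2 fold change of 3.62 was 1.73 without Dehydration 1 and 4.41 without Dehydration 2.

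The 10 largest falls included 4 extensins, structural proteins of the cell wall, and further genes of the wall, of nitrate uptake and of defence. CRK30 (AT4G11460), a cysteine-rich receptor-like kinase, had no count in the Dehydration libraries, against 13.3 and 14.7 CPM in the Mock libraries, at least 153-fold lower. AT1G26240, an extensin-like protein, had no count against 15.0 and 12.4 CPM (at least 149-fold lower). Of the other extensins, EXT10 had 0.0517 and 0.141 CPM against 10.5 and 10.7 CPM (−6.82 ± 0.39), EXT13 fell by 6.6 and EXT12 by 6.50 on the log2 scale. XTH31 (AT3G44990), an enzyme that cuts and rejoins xyloglucan chains in growing walls, had 1.78 and 1.48 CPM against 149 and 150 CPM (−6.50 ± 0.17, adjusted p = 7.7e-14). XTH31 had the highest Mock level among the 10. NRT2.1, the main high-affinity nitrate transporter of the root, had 0.362 and 0.563 CPM against 41.9 and 41.7 CPM (−6.53 ± 0.34). CYP82C2, a cytochrome P450 of indolic defence compounds, had 0.103 and 0 CPM against 12.5 and 14.3 CPM (−7.73 ± 0.35). AT5G04960, of the invertase/pectin methylesterase inhibitor superfamily, and AT5G57625, a secreted cysteine-rich protein, completed the 10 largest falls (−7.59 ± 0.46 and −6.18 ± 0.38). Part of the exon sequence of some of these genes recurs elsewhere in the genome (22.5% for CYP82C2, 18.7% for AT1G26240, 14.8% for NRT2.1 and 14.1% for EXT10), so that reads of related copies could not be placed with certainty.

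Measured by CPM lost, 3 of the 5 leading genes encode small subunits of Rubisco. RBCS1B, a subunit of this enzyme, which fixes carbon dioxide, had 182 and 187 CPM under Dehydration, against 2129 and 2108 CPM under Mock (−3.52 ± 0.12). RBCS2B had 702 and 771 CPM against 2661 and 2610 CPM (−1.84 ± 0.10), with 33.7% of its exon sequence shared with other sites. RBCS1A had 4383 and 4747 CPM against 9506 and 9357 CPM (−1.05 ± 0.12), and at −0.99 it was no longer called without Dehydration 1. The falls of these 3 small subunit genes thus had very different sizes, and RBCS3B, the other tested one, was not called (−0.69). CP29, an RNA-binding protein of the chloroplast, had 339 and 360 CPM against 1664 and 1663 CPM (−2.25 ± 0.11). PYK10, the β-glucosidase of the ER bodies of roots and seedlings, had 1338 and 1034 CPM against 3071 and 3031 CPM (−1.36 ± 0.12).

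**Figure D2:**
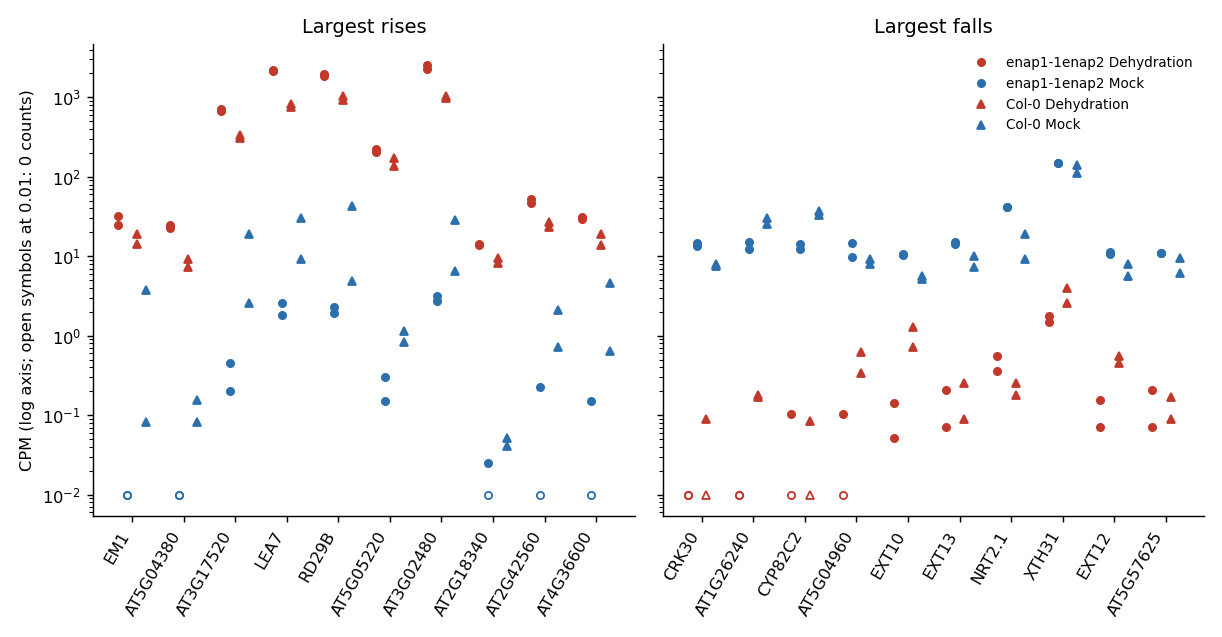
CPM per library (log axis, open symbols at 0.01 for no count) of the genes with the largest rises (left) and falls (right), with enap1-1enap2 as circles and Col-0 as triangles, Dehydration in red and Mock in blue. In enap1-1enap2 the red and blue circles of every gene shown lie apart, as for LEA7 with 2194 and 2157 CPM against 2.59 and 1.83 CPM.

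Some genes of ABA synthesis and of ABA breakdown rose. Of the 14 tested members of the list, 6 were induced and none was repressed, against 12.6% induced and 14.1% repressed among all tested genes, and the list's median log2 fold change was 1.24 against −0.01 for all genes. NCED3 (AT3G14440), the 9-cis-epoxycarotenoid dioxygenase that limits ABA synthesis under drought, had 470 and 413 CPM under Dehydration, against 7.06 and 6.26 CPM under Mock (6.04 ± 0.11, adjusted p = 6.67e-15). NCED9 was low but rose to 1.71 and 1.90 CPM, against 0.254 and 0.0763 CPM (3.31 ± 0.54). ABA1, the zeaxanthin epoxidase upstream of these enzymes, had 333 and 326 CPM against 73.3 and 70.7 CPM (2.19 ± 0.10), and AAO3, the aldehyde oxidase of the final step, rose by 1.52 ± 0.09. Breakdown rose as well. CYP707A3 and CYP707A1, which hydroxylate ABA, had 39.8 and 36.7 CPM against 2.64 and 2.06 CPM (4.00 ± 0.14) and 63.3 and 55.1 CPM against 10.0 and 9.84 CPM (2.58 ± 0.14). ABA2 (0.64), ABA3 (0.90), CYP707A2 (0.97) and BGLU18 (−0.41), which frees ABA from its glucose ester, were not called.

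The ABA receptors moved mostly the other way. Of 11 tested receptor genes, 5 were repressed and 2 were induced, against 14.1% and 12.6% of all tested genes, with a median of −1.46. PYL4 (AT2G38310) had 4.03 and 4.64 CPM under Dehydration, against 66.1 and 65.5 CPM under Mock (−3.93 ± 0.12, adjusted p = 3.06e-13), and PYL6 had 1.45 and 0.985 CPM against 8.32 and 8.39 CPM (−2.76 ± 0.26). PYL1, at 11.3 and 11.2 CPM against 30.5 and 31.4 CPM, fell by 1.46 and PYL8, at 28.9 and 31.1 CPM against 61.7 and 65.4 CPM, fell by 1.08 on the log2 scale. PYL2 (−1.74) was repressed too, but was not called without Dehydration 1. The exceptions were PYL7, with 15.6 and 17.7 CPM against 3.40 and 3.78 CPM (2.21 ± 0.15), which overlaps AT4G01030, and PYL9, with 18.2 and 17.7 CPM against 8.12 and 8.32 CPM (1.13 ± 0.14). With upper-quartile scaling or library size alone, PYL9 was not called (0.97 and 0.96), which left 1 receptor induced and 6 repressed.

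All 9 clade A PP2C genes, the phosphatases that the receptors inhibit, were induced, against 12.6% of all tested genes, with a median of 4.47. HAI1 (AT5G59220) had 693 and 703 CPM under Dehydration, against 8.73 and 8.36 CPM under Mock (6.35 ± 0.11, adjusted p = 6.25e-15). HAI2 (AT1G07430) had 253 and 268 CPM against 3.05 and 4.81 CPM (6.09 ± 0.15), and HAI3 had 67.1 and 71.2 CPM against 0.406 and 0.305 CPM (7.55 ± 0.41). AHG1, known mainly from seeds, had 6.36 and 5.91 CPM against no count and was at least 64.4-fold higher. The remaining members were well expressed without stress and still rose: ABI1 had 1024 and 1025 CPM against 82.2 and 88.2 CPM (3.59 ± 0.10), and PP2CA had 721 and 764 CPM against 56.7 and 58.4 CPM (3.69 ± 0.09). ABI2 rose by 4.47, HAB1 by 3.73 and HAB2 by 1.95.

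The SnRK2 kinases were less uniform. Of 10 genes, 2 were induced and 1 was repressed, against 12.6% and 14.1% of all tested genes, with a median of 0.53. SNRK2.7 had 110 and 106 CPM under Dehydration, against 2.39 and 2.67 CPM under Mock (5.43 ± 0.12, adjusted p = 1.78e-14). OST1 (SnRK2.6), the kinase that closes stomata in response to ABA, had 94.6 and 96.4 CPM against 21.5 and 21.3 CPM (2.16 ± 0.08). SNRK2.2 and SNRK2.3, which act with OST1 in ABA signalling, had log2 fold changes of 0.54 and 0.38 and were not called. SNRK2.8 (−1.07) was repressed, but was not called without Mock 1.

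Of the 23 genes for LEA proteins, dehydrins and related RD, COR and KIN proteins, 22 were induced and none was repressed. The shares among all tested genes were 12.6% and 14.1%, and the list's median was 4.18. Together its 23 genes had 53713 and 52379 CPM in the Dehydration libraries, against 6103 and 6260 CPM in the Mock libraries. RAB18 (AT5G66400), a dehydrin and a common marker of ABA, had 2104 and 2433 CPM against 8.83 and 12.1 CPM (7.78 ± 0.17, adjusted p = 9.45e-15). LEA4-5 had 1475 and 1444 CPM against 5.08 and 5.88 CPM (8.07 ± 0.30), and RD20, a calcium-binding protein of oil bodies, had 1608 and 1439 CPM against 9.36 and 9.84 CPM (7.31 ± 0.14). LEA4-2 rose by 7.21 and EM6, another seed LEA protein, reached 15.9 and 17.9 CPM against 0.254 and 0.305 CPM (5.92 ± 0.71). Other members were already well expressed under Mock. XERO2 had 2431 and 2400 CPM against 68.8 and 69.9 CPM (5.12 ± 0.11), ERD10 rose by 4.23, KIN1 by 4.18, ERD14 by 3.06 and KIN2 by 1.66. HIRD11, with 1605 and 2013 CPM against 1369 and 1385 CPM (0.39, adjusted p = 0.0108), was the member that was not called.

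Compatible solutes are small molecules that hold water in the cell. In the list of proline and raffinose-family genes, 7 of 13 were induced and 1 was repressed, against 12.6% and 14.1% of all tested genes. The list's median was 1.3. P5CS1, the enzyme that limits proline synthesis under stress, had 2198 and 2314 CPM under Dehydration, against 103 and 108 CPM under Mock (4.42 ± 0.12), and P5CS2 rose by 1.92. ERD5, the proline dehydrogenase that breaks proline down, had 44.5 and 50 CPM against 125 and 128 CPM (−1.43 ± 0.12). P5CR, the last step of synthesis, was at 0.03, and PRODH2 (−0.55) and P5CDH (0.56), further genes of breakdown, were not called either. All 4 galactinol synthases of the list were induced. GOLS2 had 146 and 156 CPM against 1.88 and 1.76 CPM (6.37 ± 0.18), GOLS4 had 85.5 and 81.2 CPM against 12.6 and 11.6 CPM (2.78 ± 0.14), and GOLS1 and GOLS3 rose by 2.15 and 1.90. RS5, a raffinose synthase, was called at 1.03, but not without Mock 2 (0.99), without Dehydration 1 (0.97) or under either of the other scalings.

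**Figure D3:**
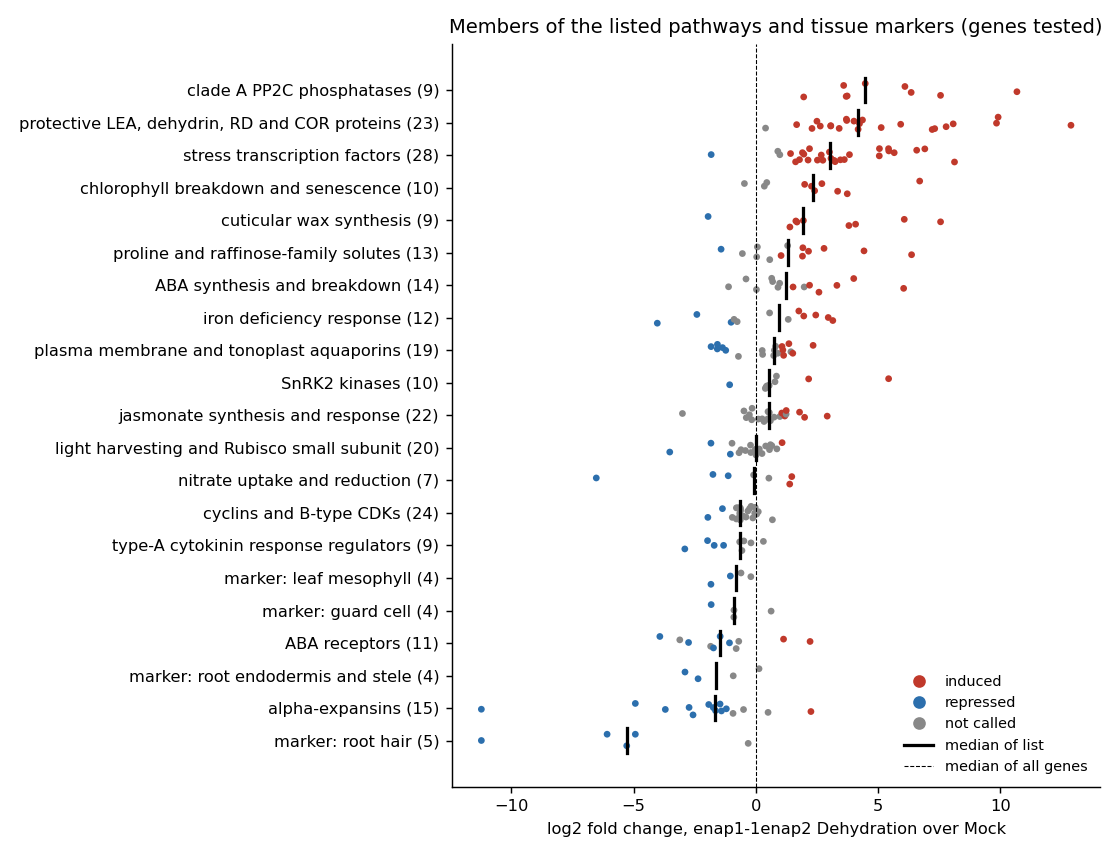
Log2 fold change of the tested members of each list, enap1-1enap2 Dehydration against enap1-1enap2 Mock, with 1 point per gene, a bar at the list's median and a dashed line at the median of all tested genes. The PP2C and protective protein lists lie wholly above 0, with medians of 4.47 and 4.18, and the expansins mostly below it, with a median of −1.65.

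Of 28 tested transcription factors with a known part in drought, cold or ABA responses, 25 were induced and 1 was repressed. The shares among all tested genes were 12.6% and 14.1%, and the list's median was 3.04. The NAC factors NAC019 and RD26 had 173 and 135 CPM under Dehydration, against 1.32 and 1.22 CPM under Mock (6.91 ± 0.32), and 488 and 497 CPM against 11 and 12 CPM (5.42 ± 0.11). The homeodomain-leucine zipper factors HB7 and HB12, which respond to ABA and restrain growth, had 798 and 881 CPM against 24.9 and 25.8 CPM (5.05 ± 0.10) and 366 and 399 CPM against 7.36 and 7.86 CPM (5.65 ± 0.11). The heat shock factor HSFA6B had 385 and 415 CPM against 9.67 and 8.74 CPM (5.43 ± 0.10), and HSFA6A rose by 6.57. Among DREB factors, CBF4 had 9.56 and 9.43 CPM against 0.0508 and 0 CPM (at least 99.6-fold higher), CBF1 was at least 22.1-fold higher, and DREB2A had 203 and 223 CPM against 20.1 and 18.6 CPM (3.45 ± 0.10). The bZIP factors that bind the ABRE rose by smaller amounts, with ABF3 at 3.20, ABI5 at 3.07, ABF2 at 3.01 and ABF4 at 1.78, and ABF1 at 0.89 was not called. MYB44, a MYB factor of ABA responses, had 139 and 126 CPM against 48.1 and 51.6 CPM (1.42 ± 0.09), and MYB96, an activator of wax synthesis, rose by 3.61. The repressed member was MYB60, a factor of guard cells that promotes stomatal opening, at 2.27 and 2.11 CPM against 7.87 and 7.78 CPM (−1.83 ± 0.21). MYC2 had no count in any library. It overlaps AT1G32630 by 3241 bases, and reads that cover more than 1 gene are by default not counted.

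Promoters of 6 genes are printed to show how the elements of the ABA and DREB routes lie in genes at both ends of the response. Each is the 250 bases before the annotated start of the gene in the RefSeq sequence of TAIR10.1, read 5′ to 3′ on the strand of the gene, with the ABRE core (ACGTG, or CACGT on the other strand) and the DRE core (CCGAC, or GTCGG on the other strand) in capitals. The palindrome CACGTG, the G-box, holds the ABRE core on both strands and was counted as 2 matches. RD29B (chr5:21236771-21237020, plus strand), LEA7 (chr1:19619474-19619723, plus strand), HAI2 (chr1:2282829-2283078, minus strand) and COR15A (chr2:17712331-17712580, minus strand) were strongly induced, and EXPA7 (chr1:4276255-4276504, plus strand) and XTH31 (chr3:16448845-16449094, minus strand) were strongly repressed. The matches were 4 ABRE and 1 DRE core in RD29B, 5 and 1 in LEA7, 4 ABRE cores in HAI2, 2 and 2 in COR15A, 2 ABRE cores in EXPA7 and no match in XTH31.
RD29B: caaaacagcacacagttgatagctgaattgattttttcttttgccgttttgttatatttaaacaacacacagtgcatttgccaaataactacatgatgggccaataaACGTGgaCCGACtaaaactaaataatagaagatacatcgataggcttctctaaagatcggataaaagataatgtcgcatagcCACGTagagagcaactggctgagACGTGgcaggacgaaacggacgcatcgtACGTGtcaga
LEA7: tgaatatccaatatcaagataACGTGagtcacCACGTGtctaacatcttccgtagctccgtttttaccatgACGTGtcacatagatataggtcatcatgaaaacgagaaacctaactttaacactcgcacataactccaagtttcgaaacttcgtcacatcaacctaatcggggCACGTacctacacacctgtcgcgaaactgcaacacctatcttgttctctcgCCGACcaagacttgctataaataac
HAI2: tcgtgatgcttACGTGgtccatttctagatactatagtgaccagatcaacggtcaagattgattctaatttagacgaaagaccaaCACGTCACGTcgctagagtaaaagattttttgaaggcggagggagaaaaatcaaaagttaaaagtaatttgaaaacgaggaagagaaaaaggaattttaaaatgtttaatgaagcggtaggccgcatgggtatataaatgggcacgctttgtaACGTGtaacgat
COR15A: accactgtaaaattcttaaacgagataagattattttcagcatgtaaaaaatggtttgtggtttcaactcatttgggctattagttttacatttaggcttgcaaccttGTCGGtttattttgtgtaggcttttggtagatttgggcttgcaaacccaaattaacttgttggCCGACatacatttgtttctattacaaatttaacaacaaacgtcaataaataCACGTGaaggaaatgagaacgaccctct
EXPA7: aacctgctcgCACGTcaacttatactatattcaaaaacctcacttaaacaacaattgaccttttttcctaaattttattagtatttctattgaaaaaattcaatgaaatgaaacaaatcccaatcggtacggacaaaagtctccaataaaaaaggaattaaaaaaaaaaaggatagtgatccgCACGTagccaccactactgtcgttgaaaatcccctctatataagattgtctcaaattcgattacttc
XTH31: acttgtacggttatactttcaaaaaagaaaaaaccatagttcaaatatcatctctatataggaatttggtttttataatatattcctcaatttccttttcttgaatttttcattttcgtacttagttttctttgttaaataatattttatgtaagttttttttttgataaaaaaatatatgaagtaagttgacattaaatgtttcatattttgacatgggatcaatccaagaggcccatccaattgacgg

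Across all tested genes the ABRE core was more frequent before induced genes and more so with a larger rise. It was found in 37.6% of the 2715 induced promoters, in 45.2% of those that rose by more than 2 and in 58.7% of those that rose by more than 4 on the log2 scale, against 23.9% of all 21613 promoters read. The G-box was found in 16.5%, 22.1% and 34.8% of these classes, against 7.44% of all promoters, and the DRE core in 17.3%, 19.9% and 24.9%, against 12.8%. Repressed genes had the ABRE core in 21.7%, close to the 22% of genes not called, but in 34.7% of the 144 that fell by more than 4, while their G-box share was 4.36%, and 1.39% in that class. In the list of protective proteins, 17 of 23 promoters held an ABRE core and 9 a DRE core. An ABRE core was also found in 6 of 9 PP2C promoters and in 5 of 15 expansin promoters. It was in 14 of 22 jasmonate promoters, a list with a median log2 fold change of 0.52. The more strongly induced stress factor and wax lists had it in 13 of 28 and 4 of 9 promoters. These shares are descriptions of letters in the sequence, with no test and no measurement of binding.

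**Figure D4:**
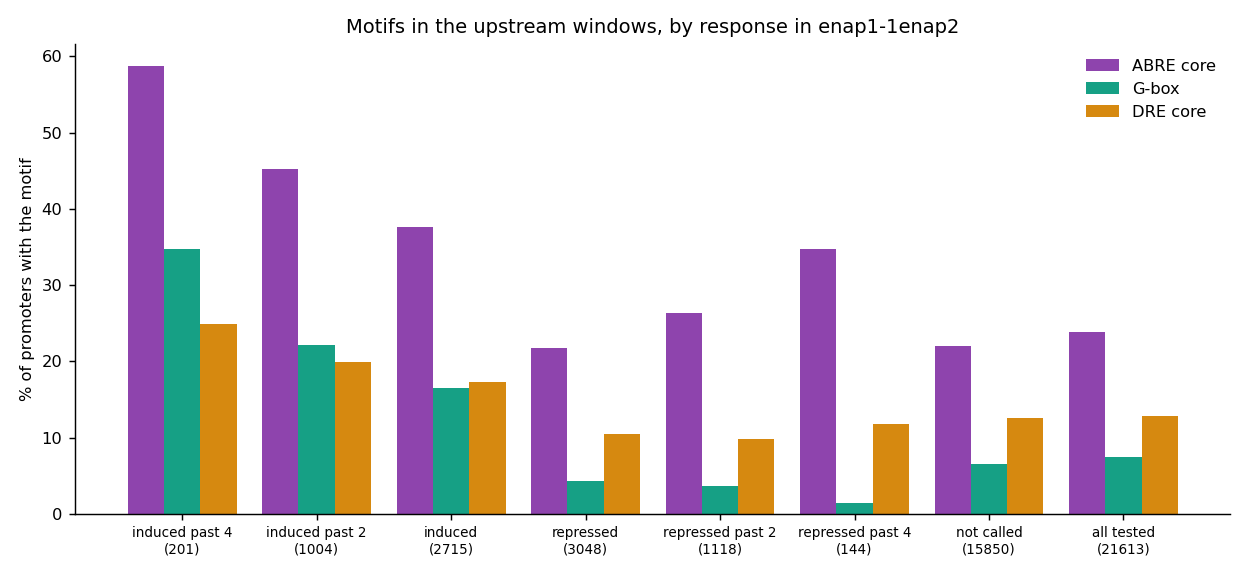
Percent of promoters (250 bases before the start) with at least 1 match to the ABRE core, the G-box or the DRE core, by class of gene in enap1-1enap2 Dehydration against Mock. With genes at or below 3 counts in both libraries of a group classed by their bound, the ABRE core bar is 58.7% for genes that rose by more than 4 on the log2 scale and 22% for genes not called.

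Of 9 genes of cuticular wax synthesis, 8 were induced and 1 was repressed, against 12.6% and 14.1% of all tested genes. The list's median was 1.94. WSD1, a wax ester synthase, had 60.9 and 57.6 CPM under Dehydration, against 0.964 and 0.763 CPM under Mock (6.07 ± 0.22). KCS2, which elongates fatty acids, had 79.2 and 85.4 CPM against 4.9 and 4.85 CPM (4.08 ± 0.10), and CER1, which makes alkanes, had 593 and 547 CPM against 40.5 and 41.2 CPM (3.80 ± 0.10). CER3 and CER6 rose by 1.94 and 1.68. CER4, a reductase for primary alcohols, was low and fell to 0.414 and 0.457 CPM, against 1.78 and 1.60 CPM (−1.96 ± 0.45). MAH1, with 0.827 and 0.563 CPM against no count (at least 7.29-fold higher), was not called without Mock 1.

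Genes of chlorophyll breakdown and senescence rose as well, with a median of 2.34. Of 10 genes 7 were induced and none was repressed, against 12.6% and 14.1% of all tested genes. SAG29, a sugar transporter of senescing tissue, had 128 and 123 CPM under Dehydration, against 1.52 and 0.763 CPM under Mock (6.70 ± 0.18), and ORE1, a NAC factor that promotes leaf senescence, had 56.2 and 48.8 CPM against 3.81 and 4.12 CPM (3.73 ± 0.12). PAO, which opens the chlorophyll ring, had 341 and 335 CPM against 51.3 and 52.9 CPM (2.7 ± 0.10). SGR1 and PPH, which remove magnesium and the phytol tail of chlorophyll, rose by 2.4 and 1.99. The chlorophyll b reductases NYC1 (−0.47) and NOL (0.44) were not called, nor was WRKY53 (0.34), and SAG12 had too few counts.

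Of 22 tested jasmonate genes, 6 were induced (27.3%) and none was repressed, against 12.6% and 14.1% of all tested genes, with a median of 0.52. VSP2, a vegetative storage protein, had 1294 and 932 CPM under Dehydration, against 144 and 151 CPM under Mock (2.92 ± 0.23), and the repressor gene JAZ1 had 176 and 144 CPM against 41.5 and 39.0 CPM (1.99 ± 0.11). JAZ5, JAZ3 and AOC1 rose by 1.78, 1.24 and 1.18. VSP1 was at 1.06 and was not called without Mock 1, without Dehydration 1 (0.62), with DESeq2 or under either of the other scalings. The lipoxygenases LOX3 and LOX4 had log2 fold changes of 0.55 and −0.40 and were not called.

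Aquaporins, the water channels of the plasma membrane (PIP) and the vacuole (TIP), split in both directions. Of 19 genes, 6 were induced and 5 repressed, against 12.6% and 14.1% of all tested genes, with a median of 0.75. PIP1;4 had 1142 and 959 CPM under Dehydration, against 204 and 211 CPM under Mock (2.34 ± 0.12), and PIP2;1 had 737 and 664 CPM against 270 and 280 CPM (1.35 ± 0.09). TIP1;2 had 291 and 262 CPM against 824 and 823 CPM (−1.58 ± 0.10), TIP2;1 had 49.4 and 53.5 CPM against 136 and 129 CPM (−1.37 ± 0.09), and TIP4;1 fell by 1.84. Of the 5 repressed channels 3 were thus vacuolar, and PIP2;4 (−1.58) and PIP1;5 (−1.24) were those of the plasma membrane. Upper-quartile scaling and library size alone each gave 3 induced and 5 repressed channels.

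Most expansins fell. Of 15 tested α-expansins, which loosen the wall of expanding cells, 11 were repressed and 1 was induced. Among all tested genes 14.1% were repressed and 12.6% induced, and the list's median was −1.65. EXPA18 had no count in the Dehydration libraries, against 9.62 and 8.39 CPM in the Mock libraries (at least 98.4-fold lower), and EXPA7 (AT1G12560) had 0.258 and 0.493 CPM against 12.1 and 10.2 CPM (−4.93 ± 0.29). EXPA6 had 16.1 and 18.6 CPM against 103 and 102 CPM (−2.57 ± 0.09), and EXPA8 and EXPA14 fell by 3.71 and 2.73. EXPA16 stood alone, with 92.8 and 90.6 CPM against 18.9 and 19.7 CPM (2.25 ± 0.17). EXPA7 and EXPA18 are also markers of root hairs. Of 5 root hair markers, 4 were repressed, with a summed level of 3.05 and 3.38 CPM under Dehydration against 48.0 and 45.3 CPM under Mock. PRP3, a proline-rich wall protein of these cells, had 0.258 and 0.211 CPM against 16.2 and 16.6 CPM (−6.09 ± 0.34), and COBL9 had 0.207 and 0.141 CPM against 6.85 and 7.33 CPM (−5.28 ± 0.33), whereas RHD6, the factor that starts hair formation, was at −0.32 and was not called. In whole seedlings, fewer cells of a type and less RNA per cell cannot be told apart. CASP1 and CASP2, which build the Casparian strip of the endodermis, fell by 2.37 and 2.9, while SCR (−0.93) of the same layer and PHO1 (0.13) of the stele were not called. Of 4 guard cell markers only MYB60 was called. Of 4 mesophyll markers 2 were repressed, the Rubisco genes RBCS1A and RBCS2B, while the light harvesting genes LHCB3 and LHCB6 were not called. The 4 mesophyll markers summed to 6057 and 6550 CPM against 13521 and 13318 CPM. Of these sums RBCS1A made up 4383 and 4747 CPM against 9506 and 9357 CPM. The part of such shifts between cell types in the results was not tested.

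Of 24 cyclins and B-type cyclin-dependent kinases, 2 were repressed and none was induced, against 14.1% and 12.6% of all tested genes, and the list's median of −0.63 lay below the −0.01 of all genes. Both called genes were D-type cyclins, which link the cycle to sugar and hormones: CYCD1;1 had 5.17 and 7.04 CPM under Dehydration, against 23.1 and 24.2 CPM under Mock (−1.97 ± 0.17), and CYCD3;1 had 11.5 and 13.2 CPM against 30.4 and 33.2 CPM (−1.37 ± 0.11). Without Dehydration 2, 4 genes of the list were repressed. Of 9 type-A response regulators, which report cytokinin signalling, 4 were repressed and none was induced, with a median of −0.66. ARR3 had 0.620 and 0.281 CPM against 2.99 and 4.12 CPM (−2.91 ± 0.38), ARR4 had 33.5 and 37.2 CPM against 86.6 and 90.1 CPM (−1.32 ± 0.11), and ARR7 fell by 1.98. ARR15 (−1.71) was not called without Mock 1, without Mock 2 or without Dehydration 1. Light harvesting and Rubisco small subunit genes had a median of −0.01, as all genes had. Apart from the 3 RBCS genes above, the only call among these 20 was LHCB2.1 (1.07), which was not called without Dehydration 2 (0.94) or under either of the other scalings and shares 34.4% of its exon sequence.

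Nitrate genes fell and rose. Of 7 tested, 3 were repressed and 2 were induced, against 14.1% and 12.6% of all tested genes, with a median of −0.09. Besides NRT2.1, the dual-affinity transporter NRT1.1 had 66.6 and 54.9 CPM under Dehydration, against 210 and 202 CPM under Mock (−1.76 ± 0.09). Nitrite reductase NIR1 had 261 and 205 CPM against 519 and 502 CPM (−1.13 ± 0.14), and without Dehydration 2 it was at −0.97 and not called. NRT1.8, which takes nitrate out of the xylem, had 28.4 and 18.3 CPM against 9.36 and 7.48 CPM (1.47 ± 0.18), and NRT1.5, which loads it, rose by 1.38. The nitrate reductases NIA1 (0.53) and NIA2 (−0.09) were not called.

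The induced genes of the iron list were high in a single library. Among all tested genes 12.6% were induced and 14.1% repressed. In Dehydration 2, BHLH100, a regulator induced by iron shortage, had 41.8 CPM, against 2.43 CPM in Dehydration 1 and 2.61 and 3.05 CPM in the Mock libraries. IMA1, a peptide that signals iron shortage, had 26.5 CPM in that library, against 4.39 CPM in Dehydration 1 and 4.16 and 3.66 CPM under Mock, and BHLH38, BHLH39, BHLH101 and IMA2 were raised there too (15.0, 9.29, 9.99 and 23.7 CPM, against 0.827 to 4.29 CPM in Dehydration 1). With both libraries 5 of 12 genes were induced and 3 repressed, with a median of 0.94, but without Dehydration 2 none was induced, 4 were repressed and the median was −0.38. The induced count was also 2 without Mock 1 and 1 without Mock 2. Calls that did not rest on Dehydration 2 were those of F6H1 and CYP82C4. F6H1, which makes the coumarins that bind iron outside the root, had 4.42 and 4.36 CPM against 76.8 and 67.2 CPM (−4.03 ± 0.11). CYP82C4, which modifies these coumarins, was at −2.42 ± 0.40, and 22.1% of its exon sequence recurs elsewhere in the genome. FIT, the main regulator of iron uptake, was called at −1.02 but not without Mock 2 or without Dehydration 1.

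The same treatment of Col-0 gave fewer calls. In Col-0, 4699 genes were called (21.7%), of which 2164 were induced (10.0%) and 2535 repressed (11.7%). Of the genes induced in enap1-1enap2, 1704 were induced in both genotypes, and of those repressed, 1868 were repressed in both. Another 1011 genes were induced in the mutant and not called in Col-0, but 949 of them had the same sign there, with a median log2 fold change of 1.27 in enap1-1enap2 against 0.73 in Col-0. Likewise 1131 of the 1180 genes repressed in the mutant and not called in Col-0 had the same sign, with medians of −1.31 and −0.74. Whether a response differs between the genotypes was tested with the interaction, the mutant's log2 fold change minus that of Col-0. It passed at an adjusted p under 0.05 for 3639 genes (16.8%), with 1745 higher (8.07%) and 1894 lower (8.76%) in enap1-1enap2. It passed for 432 of the 1011 and for 478 of the 1180 genes above. Of all induced genes 877 rose more in the mutant than in Col-0 by this test and 103 less, and of all repressed genes 726 fell more and 61 less. The number that passed was unstable: without Mock 1 or Mock 2 of enap1-1enap2 it was 1801 or 1910, without Dehydration 2 of enap1-1enap2 2418 and without Dehydration 1 of Col-0 2363.

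**Figure D5:**
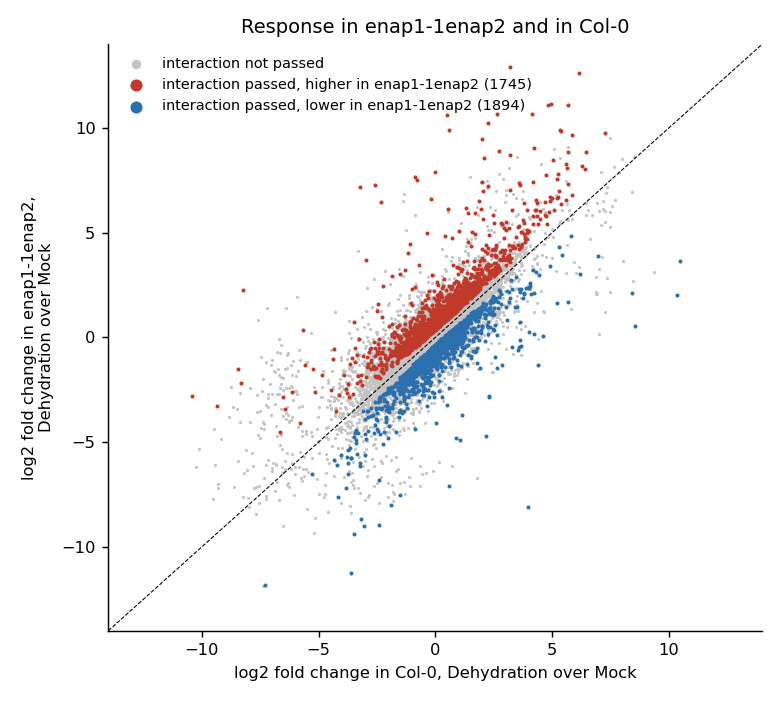
Log2 fold change, Dehydration against Mock, in enap1-1enap2 (vertical axis) against that in Col-0 (horizontal axis) for each tested gene, with genes that passed the interaction test coloured. Of the genes induced in enap1-1enap2, 877 passed with a larger and 103 with a smaller response than in Col-0.

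Several genes of the ABA response rose more in the mutant. Among all tested genes, 8.07% passed the interaction with a higher and 8.76% with a lower value in the mutant. Of 74 tested genes annotated to the response to ABA, 18 passed the interaction with a higher and 9 with a lower value in the mutant (4 lower without Mock 1 and 5 without Dehydration 1 of enap1-1enap2), and of 72 annotated to water deprivation 15 and 10 did. NCED3 had 470 and 413 CPM in enap1-1enap2 Dehydration and 7.06 and 6.26 CPM in enap1-1enap2 Mock, against 322 and 313 CPM in Col-0 Dehydration and 14 and 14.5 CPM in Col-0 Mock, and its interaction of 1.56 (adjusted p = 8.2e-06) was 1.47 to 1.67 with any 1 library left out, under other scalings and with DESeq2. NCED3 was thus higher under Dehydration and lower under Mock in the mutant. RAB18, at 943 and 1036 CPM against 24.0 and 27.3 CPM in Col-0, had log2 fold changes of 7.78 in enap1-1enap2 and 5.27 in Col-0 (interaction 2.51 ± 0.19, adjusted p = 1.93e-06). LTP4, a lipid transfer protein, had 427 and 355 CPM against 1.42 and 1.07 CPM in the mutant and 217 and 208 CPM against 4.54 and 4.34 CPM in Col-0 (interaction 2.67 ± 0.20). AT3G28270 had 389 and 380 CPM against 90.2 and 87.3 CPM in the mutant, but 195 and 176 CPM against 159 and 169 CPM in Col-0 (interaction 1.94 ± 0.12). In both genes Dehydration was higher and Mock lower in the mutant than in Col-0. COR47 (interaction 0.72) differed from them, with 6692 and 6383 CPM under Dehydration in the mutant and 6645 and 6143 CPM in Col-0. Its Mock levels were 494 and 503 CPM in the mutant and 736 and 873 CPM in Col-0. Of the 23 protective protein genes, 18 passed the interaction with a larger rise in the mutant and none with a smaller one (13 to 20 with 1 library left out), where the median was 4.18 in enap1-1enap2 and 2.84 in Col-0. Of the 9 PP2C genes 8 passed (5 to 9 with 1 library left out), and the median was 4.47 in the mutant and 3.41 in Col-0. The count was 5 without Mock 1, Mock 2 or Dehydration 2 of enap1-1enap2 or without Dehydration 1 of Col-0. SNRK2.7 (1.23), OST1 (0.57), HB12 (1.19), HB7 (1.07), RD26 (1.02), WSD1 (2.15), KCS2 (1.3) and SAG29 (1.47) had positive interactions too. Of the 10 senescence genes, 7 passed in that direction. Of 28 stress transcription factors 9 passed with a higher and 1 with a lower value, of 9 wax genes 3 and 1, and of 10 SnRK2 kinases 3 and none. DREB2C had a negative interaction, at −1.82 to −1.52 with any 1 library left out, under other scalings and with DESeq2.

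Part of the difference in LEA genes went with Col-0 Mock 1, the library with seed storage transcripts. RD29B had 43.2 CPM in that library and 4.82 CPM in Col-0 Mock 2, and its interaction of 4.45 was 2.16 without Col-0 Mock 1. LEA7, with 30.5 and 9.28 CPM in the Col-0 Mock libraries, had an interaction of 4.56, or 3.48 without it. The interactions of EM1, LEA4-1 and HAI3 did not pass without it (adjusted p of 0.068, 0.18 and 0.50), but 19 of the 23 protective protein genes then passed. Within enap1-1enap2 the log2 fold changes of RD29B and LEA7 without it were 9.84 and 9.90, while their adjusted p, which shares its estimate of the spread with Col-0, moved to 4.75e-20 and 7.47e-20.

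Other groups had lower log2 fold changes in the mutant, where 8.76% of all tested genes passed the interaction with a lower and 8.07% with a higher value. Of 22 jasmonate genes, 9 passed the interaction with a lower and 2 with a higher value (7 to 10 and 1 to 4 with 1 library left out), and the median was 0.52 in enap1-1enap2 against 1.11 in Col-0, where 12 genes were induced. JAZ10 had 6.41 and 3.80 CPM against 3.65 and 3.66 CPM in the mutant, but 16.2 and 13.8 CPM against 3.50 and 2.84 CPM in Col-0 (interaction −1.75). LOX3 had 19.3 and 15.1 CPM against 11.3 and 12.4 CPM in the mutant, but 42.9 and 33.2 CPM against 9.03 and 10.2 CPM in Col-0 (interaction −1.44). Mock levels of both genes were near each other in the genotypes, and the Dehydration levels were apart. Of 19 aquaporins 8 passed with a lower response in the mutant (8 to 10), among them PIP2;1 (1.35 in the mutant against 2.07 in Col-0) and TIP2;1 (−1.37 against −0.30). Of 7 nitrate genes 5 passed with a lower response in every setting that left out 1 library. NIA1 had 472 and 517 CPM against 350 and 336 CPM in the mutant and 1007 and 820 CPM against 228 and 280 CPM in Col-0 (interaction −1.32), and NRT1.8 had an interaction of −1.93. Among receptors 4 of 11 passed with a lower response (4 to 5): PYL6 (−2.18), PYL4 (−1.41), PYL5 (−1.38) and PYL8 (−0.69). IRT1, the iron transporter, was at −0.90 in the mutant and 1.52 in Col-0 (interaction −2.41).

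The genes with the smallest interaction p in each class included glycosyltransferases, a sucrose transporter and enzymes of defence metabolism. UGT74E2, a glucosyltransferase of the auxin indole-3-butyric acid, had 221 and 201 CPM against 76.6 and 79.3 CPM in the mutant and 351 and 295 CPM against 28.5 and 28.9 CPM in Col-0 (interaction −2.05 ± 0.13). NFXL1 had 222 and 220 CPM against 79.4 and 80.5 CPM in the mutant and 417 and 413 CPM against 54.9 and 47.9 CPM in Col-0 (−1.55 ± 0.12), and AT2G36780, another glycosyltransferase, had 125 and 103 CPM against 14.4 and 13.8 CPM in the mutant and 169 and 130 CPM against 2.64 and 1.5 CPM in Col-0 (−3.19 ± 0.25). These genes had a smaller rise in the mutant, with a higher Mock level and a lower Dehydration level. AT5G64120, a peroxidase, had 6.82 and 7.14 CPM against 377 and 366 CPM in the mutant and 21.0 and 17.1 CPM against 217 and 246 CPM in Col-0 (−2.13 ± 0.15). SUC1, a sucrose transporter, had 23.8 and 20.5 CPM against 129 and 125 CPM in the mutant and 55.9 and 53.4 CPM against 100 and 111 CPM in Col-0 (−1.57 ± 0.13), and AT3G54400, an aspartyl protease, had an interaction of −1.83 ± 0.14. These fell more in the mutant. DOX1, an enzyme that oxidises fatty acids, had 224 and 235 CPM against 555 and 555 CPM in the mutant and 106 and 91.0 CPM against 807 and 664 CPM in Col-0 (1.63 ± 0.15). CYP71A12, a P450 of camalexin synthesis, fell by 4.50 in the mutant and fell by 6.65 in Col-0 (2.16 ± 0.28), and AT5G38910, a cupin, fell by 1.52 in the mutant and 5.24 in Col-0 (3.72 ± 0.41). The last 3 genes fell less in the mutant.

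No gene was induced in enap1-1enap2 and repressed in Col-0, and 8 were repressed in enap1-1enap2 and induced in Col-0. None of the 8 exceeded 51.4 CPM in any library. SUC7, a gene of the sucrose transporter family, had 0.103 and 0.0704 CPM against 2.28 and 2.59 CPM in the mutant. In Col-0 it had 1.08 and 1.27 CPM against 0.470 and 0.0811 CPM, and the log2 fold changes were −4.72 and 2.15. Of its exon sequence 22.7% recurs elsewhere in the genome. RAP2.9, an ERF factor, had 4.55 and 2.81 CPM against 9.19 and 8.47 CPM in the mutant and 14.8 and 16.0 CPM against 4.99 and 4.09 CPM in Col-0 (−1.24 and 1.76). DIN11, a gene known to be induced in the dark, had 18.6 and 3.69 CPM against 29.4 and 27 CPM in the mutant and 47.5 and 51.4 CPM against 8.22 and 5.55 CPM in Col-0 (−1.3 and 2.86). The Dehydration replicates of DIN11 were far apart in the mutant. TDR1, another ERF factor, had no count against 1.17 and 0.839 CPM in the mutant (at least 11-fold lower), and 1.71 and 1.19 CPM against 0 and 0.162 CPM in Col-0. The others were AT3G23550, a MATE transporter (−3.68 and 1.14), AT4G12735 (−2.82 and 2.3), GSTU11, a glutathione transferase (−1.47 and 2.65), and AT1G05675, a glycosyltransferase (−1.46 and 1.93). The interaction of each of the 8 genes passed with any 1 library left out. The fall in the mutant was not called for GSTU11 without Mock 1 (−1.39) or Dehydration 2 (−1.21), for RAP2.9 without Dehydration 2 (−0.96) or for DIN11 without Mock 1, Mock 2 or Dehydration 2 (−0.60).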

How the data were processed

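RNA-seq libraries were made from total RNA of whole seedlings, 2 per group, which the titles number BR1 and BR2. The authors trimmed the reads with Trim Galore 0.6.7 and counted them on the TAIR10 genome with featureCounts (Subread 2.0.1), per the submitters' processing notes. They deposited raw read counts for 36799 genes of Araport11, counted on exons, unstranded, with mates counted singly as the file header gives no paired option. The methods name bowtie2, while the alignment file names in the header have the form that STAR writes. All 8 count columns were matched to samples by genotype, treatment and number.

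The deposited counts were tested in R 4.3.3 with edgeR 4.0.16 (limma 3.58.1 loaded). Low genes were removed by filterByExpr with the 4 groups, libraries were scaled by TMM, and the quasi-likelihood fit used all 8 libraries with group means, since the groups then share an estimate of the spread. Dehydration was tested against Mock in each genotype, and the 2 responses against each other (interaction), with Benjamini-Hochberg adjustment over all 21614 genes. SEs were derived from the F statistic, as log2 fold change over its square root. p-values measure the spread between libraries, and it is not stated whether replicates were grown apart. Where no library of a group exceeded 3 counts, the fold was computed from 3 counts in each of them and given as a lower bound, and this floor covers counting error only. RefSeq (TAIR10.1) supplied names, descriptions and promoter sequences, and 36632 genes were found there by locus. Start sites were those of the genes in the count table. Exon sequence that recurs in the genome was counted in stretches of 31 bases.

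The members and lists were chosen with earlier results of these data known. Named were ENAP1 and ENAP2, the 10 largest rises and falls at an average of 5 CPM or more, the 5 largest gains and losses in CPM, up to 5 called genes per list and members needed for its other direction, the 3 smallest interaction p-values in each of 4 classes and all genes with opposite calls. Further list members and CRA1 were named after their values were seen. In simulated data for this comparison on 21614 genes, 44, 49, 49 and 50 of 50 genes changed by 1.2, 1.5, 2 and 3 on the log2 scale were called, and 4 unchanged genes. Only 200 genes were changed there, none at the lowest levels and equally many in each direction, with no outlying library. These figures therefore need not hold for the real data, in which 5763 genes were called. Alternatives were RLE, upper-quartile and library-size scaling, DESeq2 1.42.0, other count filters and thresholds, a replicate block, the 4 mutant libraries alone and leaving out each library. Figures were drawn with matplotlib 3.10.9.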

Additional observations from a re-analysis of the deposited data

Results flagged for a closer look

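The dehydration response differed between enap1-1enap2 and Col-0 by the test of the interaction, which 3639 genes passed. Interactions are the mutant's log2 fold change minus that of Col-0. Among genes induced in the mutant they were 1.94 for AT3G28270, 2.51 for RAB18 and 2.67 for LTP4, with a larger rise in the mutant, and −2.05 for UGT74E2, −1.55 for NFXL1 and −3.19 for AT2G36780, with a smaller rise. Among repressed genes they were −2.13 for AT5G64120, −1.83 for AT3G54400 and −1.57 for SUC1, with a larger fall in the mutant, and 1.63 for DOX1, 3.72 for AT5G38910 and 2.16 for CYP71A12, with a smaller fall. The 8 genes repressed in the mutant and induced in Col-0 had interactions of −3.38 (AT1G05675), −6.87 (SUC7), −4.11 (GSTU11), −12.06 (TDR1), −4.82 (AT3G23550), −4.15 (DIN11), −3.01 (RAP2.9) and −5.12 (AT4G12735). The value of TDR1 depends on the prior count, since it had no count in enap1-1enap2 Dehydration. Groups of 2 libraries were not tested for a library far from the rest of its group.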

How the results depend on the processing

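The 5763 calls in enap1-1enap2 became 3335 with a log2 fold change over 1.5, 12451 without a fold threshold and 3823 with glmTreat, which tests against the fold threshold itself. Tested by glmTreat against an absolute interaction of 1, 121 genes passed the interaction at an adjusted p under 0.05. With 1 library left out they were 5284 to 5765, and other scalings, filters, DESeq2 and the mutant's 4 libraries alone gave 5484 to 5932. The interaction count of 3639 became 958 with an absolute interaction over 1 and 1801 to 4282 with 1 library left out: 1801 and 1910 without Mock 1 and Mock 2 of enap1-1enap2, 2418 without Dehydration 2 of enap1-1enap2 and 2363 without Dehydration 1 of Col-0. With both enap1-1enap2 Mock libraries summed to 1 sample, chosen after seeing the data, it was 1896. The cause was not tested. Same-numbered libraries did not deviate together (correlations of −0.07 to 0.09). With 2 libraries per group this cannot show whether they were grown or handled as sets, and the main fit did not pair them. A replicate block gave 5672 calls and 3379 interactions, and of 194 named genes VSP1 (0.99) lost its call. Of these genes, 7 lost the call with upper-quartile scaling, 7 with library size alone and 6 with DESeq2. Calls were also lost when any single mutant library was left out. Among them, BHLH100 (2.96) lost its call and turned to −0.22 without Dehydration 2, and was at 3.89 without Dehydration 1. Genes under about 1 CPM rested on few counts, as 3 counts were up to 0.135 CPM.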

Other observations

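Annotated processes gave a wider view of the response of enap1-1enap2, as counts without a test. Of 72 tested genes that RefSeq annotates to water deprivation, 32 were induced (44.4%) and 6 repressed, and of 41 genes of protein dephosphorylation 16 were induced (39.0%), against 12.6% of all tested genes. Receptor-like kinases stood at the other end: of 110 genes annotated to transmembrane receptor protein tyrosine kinase signalling, a term that such kinases carry in plants, 41 were repressed (37.3%) and 3 induced, against 14.1% repressed among all tested genes, with a median log2 fold change of −0.79. Defence genes also lay on the repressed side, with 71 of 273 repressed and 10 induced, and so did innate immunity, with 24 of 93 repressed and 2 induced. Ribosome biogenesis (17 of 100, 17%) and translation (54 of 363, 14.9%) had repressed shares near that of all genes, but none and 8 genes induced (2.2% of translation). Vesicle-mediated transport had an induced share near that of all genes (10 of 78, 12.8%) and none repressed.

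Gene families were chosen by words in their descriptions. Of 61 tested class III peroxidases, enzymes that crosslink cell walls and make or remove peroxide, 32 were repressed (52.5%) and 4 induced, with a median of −1.30. Ribosomal proteins had 45 of 315 genes repressed, at 14.3% near the share of all genes, and 8 induced (2.54%), with a median of −0.59. NAC factors had 26 of 72 genes induced (36.1%) and 7 repressed, and 3 repressed without Mock 2 and 4 without Dehydration 2. WRKY factors had 14 of 63 induced (22.2%) and 10 repressed, and 9 induced without Dehydration 2. Small heat shock proteins had 8 of 30 genes induced (26.7%) and 1 repressed.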
